A study of Mus musculus with 8 samples.

Results

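The 46 genes described here encode subunits of the 26S proteasome, its activators, its inhibitor and its assembly chaperones, as expressed in mouse regulatory T cells (Tregs). They were chosen by symbol: Psma, Psmb, Psmc, Psmd, Psme, Psmf or Psmg followed by a number, with 10 or more counts in at least 2 of the 8 libraries. Of the 55011 symbols in the count table, 48 had such a name, and 46 of these reached the count. Psmb11, the catalytic subunit of the thymic proteasome, and Psma8, the alpha subunit of the testis, did not, with a second-highest count of 1 and 0. The members closest above the limit were the chaperone genes Psmg4 and Psmg3 and the activator gene Psme3, with a second-highest count of 47, 81 and 88.

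Each library was made from polyadenylated RNA of 1000 sorted Tregs from skin or spleen of mice aged 2 weeks (day 13 in the sample titles). WT mice were Pparg+/+ Foxp3-Cre and KO mice were Ppargf/f Foxp3-Cre, so both genotypes carried Cre. Foxp3 is the lineage gene of Tregs, and Cre driven from it acts in cells that express Foxp3. Each genotype and tissue, 4 groups in all, had 2 libraries, and no treatment was given per the labels. Replicate 1 of every group carried Xist (421 to 611 CPM) and replicate 2 the Y gene Ddx3y (76.4 to 129 CPM), which puts animals or pools of different sex in each group. The number of animals behind a library is not stated in the labels. The p-values therefore cover only the spread between 2 libraries from different animals or pools. Sex, animal and technical differences cannot be told apart in it.

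The 26S proteasome degrades proteins tagged with ubiquitin. Its 20S core is a barrel of alpha and beta rings, and the beta subunits Psmb5, Psmb6 and Psmb7 carry the proteolytic sites. In lymphocytes and after interferon, these are replaced by Psmb8, Psmb9 and Psmb10 to form the immunoproteasome, which is known for making peptides for MHC class I. The 19S cap has a base, whose ATPases unfold the substrate, and a lid, which removes ubiquitin. The PA28 activator, made of Psme1 and Psme2, is an alternative cap. Because these subunits assemble in fixed proportions, their genes are commonly expressed together.

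Library totals ran from 3115832 to 4466963 counts, and 17262 to 19274 genes were detected per library. The 46 members took 0.679% to 0.818% of the counts. Levels are in CPM, counts scaled to a common library size, with TMM factors that correct for library composition, and all 46 members were among the 12414 genes tested with edgeR. Pparg itself was at 75.7 and 59.8 CPM in WT skin and at 8.46 and 13.3 in KO skin, and in spleen at 22.5 and 12.3 with WT and 2.16 and 1.66 with KO. It was lower in every KO library than in any WT library of the same tissue. The 6 Treg markers (Foxp3, Cd4, Cd3e, Il2ra, Ctla4 and Ikzf2) summed to 5263 to 6039 CPM in skin and 2544 to 2712 in spleen. Of the markers of other cells, the 4 of myeloid and dendritic cells summed to 2.14 to 5.43 CPM in WT skin and to 7.54 and 45.2 in KO skin. H2-Aa made up most of the higher sum, with 41.5 CPM in KO skin replicate 1 and 2.41 in replicate 2. The B cell marker Cd79a was at 0.493 and 0.356 CPM in WT skin and 1.85 and 2.41 in KO skin, and Ms4a1 had 0 counts in all 4 skin libraries. The part of these cells in the results was not tested. In such bulk samples, fewer cells of a type and less RNA per cell cannot be told apart.

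Psmd3 was the member that differed by genotype. It encodes a scaffold subunit of the 19S lid and lies on chromosome 11 at 98682554 to 98695979 (mm10, forward strand, 4967 bases of exon). In WT skin it had 59 and 88 counts, or 14.6 and 31.3 CPM. KO skin held 199 and 224 counts, or 52.6 and 67.6 CPM. WT spleen held 812 and 612 counts, or 190.0 and 175.2 CPM. For KO spleen the counts were 225 and 178, or 60.7 and 42.2 CPM. WT spleen was thus high and WT skin low, both KO groups lay between them, and the KO libraries did not overlap the WT libraries in either tissue. The KO skin and KO spleen libraries overlapped each other.

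By edgeR's test, Psmd3 rose in KO skin by a log2 fold change of 1.41 ± 0.294 (SE; 2.65-fold, adjusted p = 0.0474). This p was rank 105 among all genes, of which 0.894% passed. In spleen it fell in KO by a log2 fold change of -1.82 ± 0.267 (3.53-fold, edgeR adjusted p = 0.0203), rank 9, where 0.282% of genes passed. The difference between the genotype effects was 3.23 ± 0.397 on the log2 scale (edgeR adjusted p = 0.0114), the second smallest p (rank 2) of a test that 0.0967% of genes passed. Between tissues, Psmd3 was lower in skin than in spleen in WT by a log2 fold change of -3.00 ± 0.292 (8.02-fold, edgeR adjusted p = 5e-06). In KO the tissues differed by 0.22 ± 0.271 (edgeR adjusted p = 0.587), which did not pass.

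The WT tissue difference of Psmd3 held under all 17 alternatives tried. Its call in skin ended under 8 of 17: RLE scaling (edgeR adjusted p = 0.0505), a filter of 20 counts (0.0573), a fit to the compared groups only (0.0518), and leaving out WT skin replicate 1 (0.224), KO skin replicate 1 (0.168), KO skin replicate 2 (0.292), WT spleen replicate 1 (0.0922) or WT spleen replicate 2 (0.0953). In spleen the call ended without WT spleen replicate 1 (edgeR adjusted p = 0.134), WT spleen replicate 2 (0.111) or KO spleen replicate 2 (0.141). That of the difference ended without KO skin replicate 1 (0.106), KO skin replicate 2 (0.0604) or WT spleen replicate 2 (0.078). Its log2 fold change stayed between 0.92 and 2.00 in skin, between -2.09 and -1.58 in spleen, and between 2.75 and 3.83 for the difference.

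None of the other 7 lid genes among the members passed the test by genotype. They encode Psmd14, the deubiquitinase of the lid, and the structural subunits Psmd6, Psmd7, Psmd8, Psmd11, Psmd12 and Psmd13. Sem1, which also encodes a lid subunit, lies outside the symbol rule and is in none of the lid values below. Within a library, where scaling plays no part, Psmd3 made up 1.09% (exact binomial 95% interval 0.834 to 1.41) and 2.51% (2.02 to 3.08) of the lid counts in WT skin, and 3.57% and 4.90% in KO skin. The spleen libraries gave 13.6% and 13.4% for WT and 4.71% and 3.77% for KO. These intervals cover counting error only. The largest share of Psmd3 was 12.5 times the smallest, whereas for each of the other 7 lid genes this ratio lay between 1.15 and 1.48. Per kilobase of exon, Psmd3 was the lowest of these 8 lid genes in 6 libraries and rank 7 of 8 in both WT spleen libraries. There it stood at 38.3 and 35.3 CPM per kilobase, against 2.93 and 6.31 in WT skin. The other 7 ranged from 21.6 to 114.4 over all libraries. Among lid genes other than Psmd3, the log2 fold change by genotype furthest from 0 was that of Psmd6 in skin, at 0.30 (edgeR adjusted p = 0.49).

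**Figure D1:**
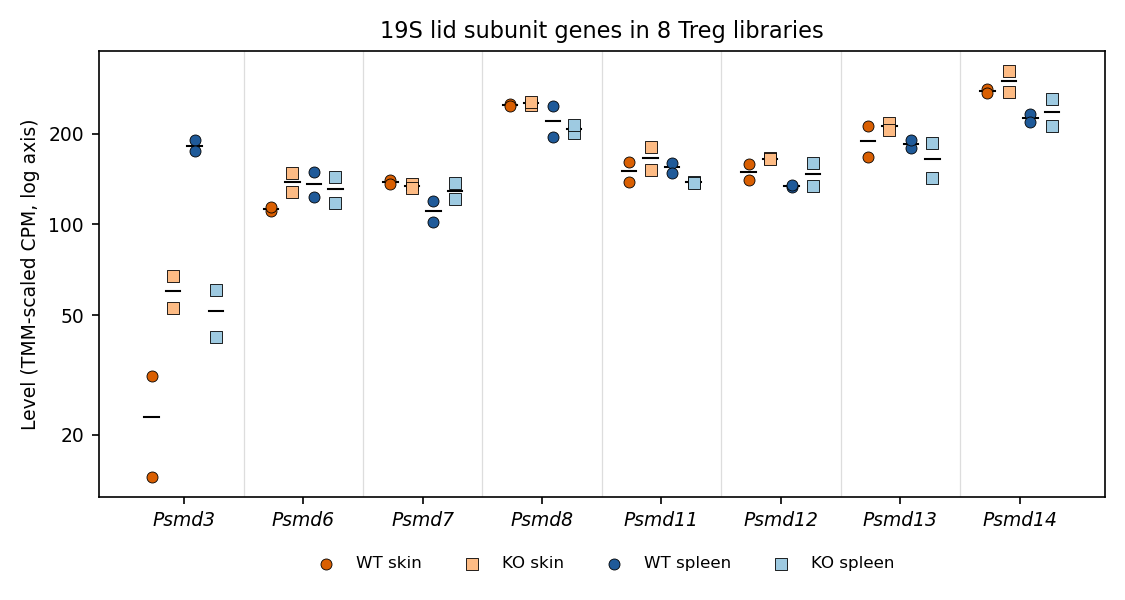
Levels of the 8 members of the 19S lid that match the symbol rule (TMM-scaled CPM, log axis) in both genotypes and tissues. Each point is 1 library and each short line the mean of 2. Psmd3 spans 14.6 to 190.0 CPM, while the 4 groups of each other gene lie close together.

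Over all 8 libraries, the highest CPM of Psmd3 was 13.1 times its lowest. For the other 45 members this ratio was between 1.15 (the ATPase gene Psmc4) and 2.56 (Psmg4), with a median of 1.39. These 45 genes summed to 7464 and 7582 CPM in WT skin and 7994 and 7950 in KO skin. In spleen their sums were 7408 and 7208 CPM for WT and 7304 and 7261 for KO. Both KO skin sums were above those of all other libraries, and both KO spleen sums lay between those of WT spleen.

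Among genes called by genotype in both tissues, 9 in all, Psmd3 and Vars had opposite directions. Vars encodes the valyl tRNA synthetase and was chosen for this likeness. The skin libraries held 72.8 and 108.2 CPM of it in WT and 150.4 and 191.0 in KO, and the spleen libraries 183.0 and 170.0 in WT and 86.3 and 73.1 in KO. As for Psmd3, WT spleen was higher than KO spleen and WT skin lower than KO skin with no overlap, although its KO skin libraries overlapped those of WT spleen. Its log2 fold change by genotype was 0.92 in skin and -1.14 in spleen, with an edgeR adjusted p of 0.0205 and 0.0120.

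Of the 2 annotated protein-coding genes on each side of Psmd3, only Med24 had enough counts to be tested, and it was not called by genotype (log2 fold change -0.38 in skin and -0.05 in spleen, edgeR adjusted p = 0.389 and 0.991). Med24, a Mediator subunit gene that lies 8612 bases beyond it on the reverse strand, was at 120.6 and 98.6 CPM in WT skin, with 93.5 and 74.5 for KO. In spleen it was at 93.8 and 93.9 CPM in WT and 94.2 and 87.5 in KO. Csf3, the gene of the cytokine G-CSF, and Gsdma2, a gasdermin gene, had 0 counts in all 8 libraries, where 3 counts would be 0.702 to 1.07 CPM, and Gsdma, 4846 bases before Psmd3, was at or under 0.30 CPM. Gm12356, which overlaps Psmd3 on the other strand, also had 0 counts in every library. Of the 25-base words in Psmd3 transcripts, 2.0% occur in transcripts of another gene. How reads with several matches were counted is not known from the labels, and members with many shared words, such as Psmb5 (76.7%), Psma5 (64.5%), Psmc1 (39.3%), Psmd2 (37.6%) and Psme2 (35.7%, mostly with Psme2b), are less certain.

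**Figure D2:**
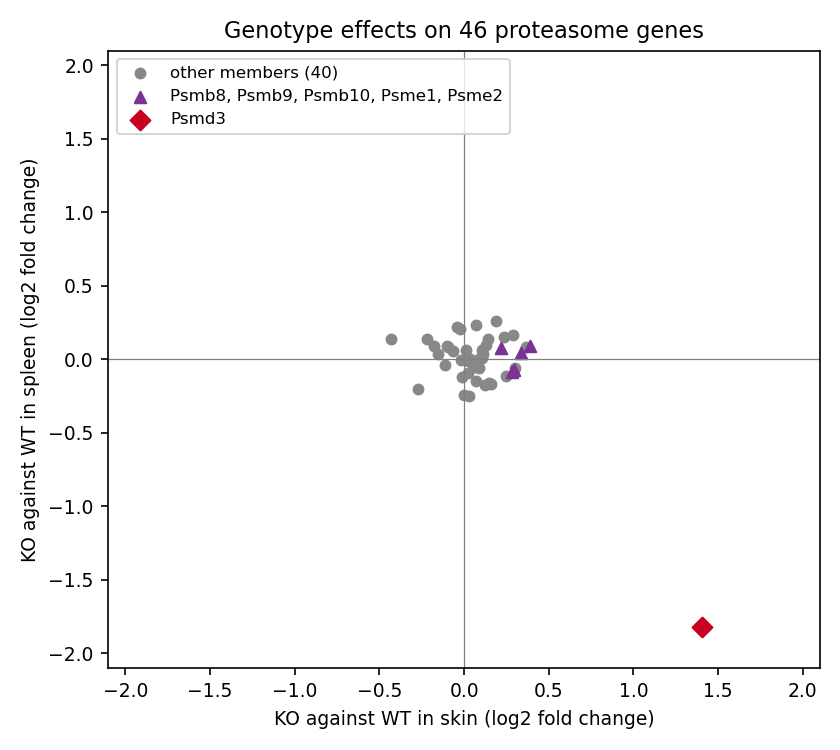
Log2 fold change of KO against WT in skin (x axis) and in spleen (y axis) for the 46 proteasome genes, each point 1 gene. Psmd3 stands at 1.41 and -1.82, and the other 45 genes lie between -0.43 and 0.39 on both axes.

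None of the other 45 members passed edgeR's test for genotype in skin, and none in spleen. Of all tested genes, 0.894% passed in skin and 0.282% in spleen. The counts of these 45 members were also 0 by DESeq2 and by limma-voom. At an unadjusted p under 0.05, 5 of the 45 were higher in KO skin, 11.1% against 5.51% of all genes, and none was lower. In spleen 1 was lower, the ATPase gene Psmc3, with a log2 fold change of -0.25 (unadjusted p = 0.049 and adjusted p = 0.636 by edgeR). Of all 12414 tested genes, 658 were lower at this unadjusted level in skin and 631 in spleen. The median log2 fold change of the 45 was 0.07 in skin, where 32 lay above 0, and 0.01 in spleen, where 24 did. Over all tested genes the medians were 0.01 and 0.00. The range was from -0.43 (Psmd9, a chaperone of base assembly) to 0.39 (Psmb9) in skin, and from -0.25 (Psmb7) to 0.26 (Psmg2, a chaperone of the alpha ring) in spleen. KO and WT libraries did not overlap for 39.1% of the 46 members in skin and 41.3% in spleen, near the 39.9% and 38.6% of all tested genes.

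The 5 genes at an unadjusted p under 0.05 in skin were those of the immunoproteasome and of PA28, all of which interferon gamma is known to induce. Psmb8, which lies in the MHC region of chromosome 17 with Tap1 between it and Psmb9, was at 624 and 718 CPM in WT skin and 762 and 796 in KO skin. Psmb9 was at 138 and 163 CPM in WT skin and 180 and 214 in KO skin. Psmb10 was at 86.6 and 85.1 CPM in WT skin and 110 and 99.2 in KO skin. For each of the 3, both KO skin libraries were above both WT skin libraries. The PA28 alpha gene Psme1 was at 292 and 303 CPM in WT skin and 372 and 359 in KO skin. Its partner Psme2, the PA28 beta gene, was at 116 and 162 CPM in WT skin and 175.5 and 174.7 in KO skin. Again the groups did not overlap. KO skin lay above WT skin with no overlap for 2492 of all 12414 tested genes. The 5 were picked by p in this same comparison, so their lack of overlap adds no support.

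No gene of the 5 passed the adjusted test in skin. The log2 fold changes were 0.22 ± 0.0961 (SE) for Psmb8, 0.39 ± 0.144 for Psmb9, 0.28 ± 0.135 for Psmb10, 0.30 ± 0.108 for Psme1 and 0.33 ± 0.154 for Psme2. The edgeR adjusted p was 0.414, 0.291, 0.462, 0.278 and 0.440 in the same order. Under none of the 17 alternatives was any of them called. In spleen their log2 fold changes by genotype lay between -0.08 (Psmb10) and 0.09 (Psmb9). For none of the 5 did the difference of the genotype effects pass (the smallest edgeR adjusted p was 0.432, for Psme1). The myeloid marker sum and Cd79a were also higher in KO skin than in WT skin, as given above. Cd79a in KO skin lay within its range in spleen. The keratinocyte and fibroblast, endothelial, and CD8 T and NK sums overlapped between WT and KO skin. Of the KO skin pair, replicate 1, with the myeloid sum of 45.2 CPM, had the higher levels of Psmb10, Psme1 and Psme2, and replicate 2, with 7.54 CPM, had the higher levels of Psmb8 and Psmb9.

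Of the 46 members, 39 were matched in the RefSeq promoter table (build GRCm38.p6, 250 bases before to 50 after each start). Shown are the windows of Psmb8, Psme1 and Psmc6, the members called between the tissues whose windows hold a match to 1 of 3 motifs, and of Psmb9, the member nearest to Psmb8. Psmb10, Psmd1, Psmf1 and Psma1, also called between the tissues, have windows that hold no match to these 3 motifs. Psmd3, Psmc3 and Psmb1, called as well, were not matched in the promoter table and have no window. Capitals mark matches, on either strand, to TTCNNNGAA (the gamma-activated sequence, in Psmb8), GAAANNGAAA (the core of the interferon-stimulated response element, in Psme1) or TGACNNNGC (the core of the antioxidant response element, in Psmc6). The Psmb9 window holds no match to these 3. Sequences run 5′ to 3′ on the strand of the gene: Psmb8 chr17:34197945-34198244 forward, Psmb9 chr17:34187281-34187580 reverse, Psme1 chr14:55578244-55578543 forward and Psmc6 chr14:45329574-45329873 forward.
Psmb8: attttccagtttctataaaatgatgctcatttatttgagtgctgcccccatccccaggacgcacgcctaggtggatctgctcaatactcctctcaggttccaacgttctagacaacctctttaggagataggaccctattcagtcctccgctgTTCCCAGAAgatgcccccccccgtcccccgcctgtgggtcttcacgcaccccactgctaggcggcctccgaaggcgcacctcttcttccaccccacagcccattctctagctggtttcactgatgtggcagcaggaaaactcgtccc
Psmb9: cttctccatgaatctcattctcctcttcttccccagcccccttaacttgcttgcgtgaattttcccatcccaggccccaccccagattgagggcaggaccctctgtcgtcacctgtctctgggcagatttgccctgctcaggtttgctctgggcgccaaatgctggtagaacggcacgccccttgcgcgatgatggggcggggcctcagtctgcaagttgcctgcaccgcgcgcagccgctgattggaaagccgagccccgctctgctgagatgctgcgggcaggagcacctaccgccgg
Psme1: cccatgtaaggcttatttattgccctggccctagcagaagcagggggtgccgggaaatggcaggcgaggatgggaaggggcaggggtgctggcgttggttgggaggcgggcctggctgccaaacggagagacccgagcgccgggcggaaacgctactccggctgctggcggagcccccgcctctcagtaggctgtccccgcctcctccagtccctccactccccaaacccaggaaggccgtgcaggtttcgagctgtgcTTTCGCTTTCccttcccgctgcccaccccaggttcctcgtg
Psmc6: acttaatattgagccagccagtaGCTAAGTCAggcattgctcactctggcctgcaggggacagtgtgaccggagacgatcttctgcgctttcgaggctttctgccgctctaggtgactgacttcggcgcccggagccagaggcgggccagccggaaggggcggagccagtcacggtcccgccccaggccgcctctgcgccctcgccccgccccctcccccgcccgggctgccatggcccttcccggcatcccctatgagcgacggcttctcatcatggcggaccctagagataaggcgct

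TTCNNNGAA was found in windows of 3 of the 39 members (Psmb8, Psmd2 and Psmg1), and in 8.30% of all 32851 windows of the table. GAAANNGAAA was found for 5 members (Psmb3, Psmd4, Psmd9, Psme1 and Psmg4), against 3.44% of all windows. TGACNNNGC was found for 6 members (Psmb5, Psmb6, Psmc6, Psmd12, Psmd9 and Psme4), against 12.4%. Another motif, CCAAT, was not capitalised and was found for 13 members, Psmb9 and Psma1 among them, and in 37.4% of all windows. These matches describe letters in the windows. A member can have more than 1 window, and the TGACNNNGC members include Psmb5 and Psmb6, which showed no difference past the test in any comparison.

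None of the 3 constitutive catalytic genes passed the test in any comparison. Psmb5, with the chymotrypsin-like site, held 64.9 and 64.8 CPM in WT and 72.9 and 59.7 in KO in skin, against 63.7 and 65.5 in WT and 58.5 and 70.5 in KO in spleen. Psmb6, with the caspase-like site, held 172 and 201 CPM in WT and 169 and 176 in KO in skin, against 171 and 148 in WT and 160.0 and 150.7 in KO in spleen. Psmb7, with the trypsin-like site, held 68.8 and 87.9 CPM in WT and 83.5 and 75.4 in KO in skin, against 70.0 and 79.9 in WT and 72.6 and 53.6 in KO in spleen. KO and WT libraries overlapped for all 3 of these genes in both tissues. As a share of the counts of the 6 catalytic genes, Psmb8, Psmb9 and Psmb10 made up 73.5% and 73.2% in WT and 76.4% and 78.1% in KO for skin. For spleen the share was 79.3% and 80.6% in WT and 80.6% and 82.2% in KO. The share was lowest in WT skin and highest in the spleen groups. Per kilobase of exon and over all libraries, Psmb8 was the highest member, at 231 CPM per kilobase, followed by Psma6 (171.9) and Psme1 (160.4). At the other end were Psmg3 (5.50) and Psme4 (5.69), the gene of the PA200 activator.

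**Figure D3:**
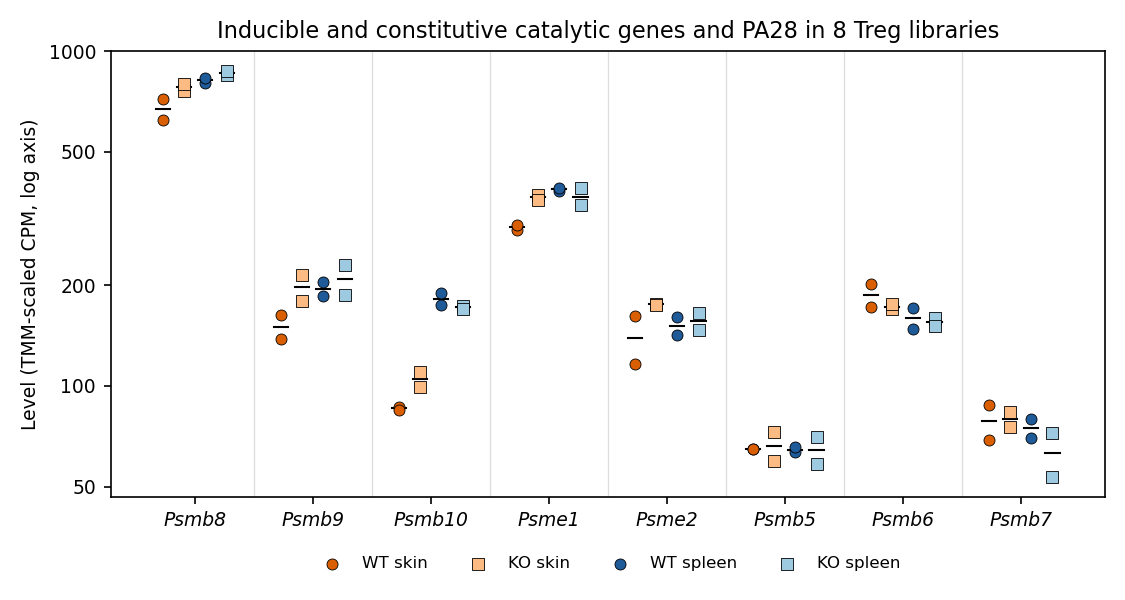
Levels of Psmb8, Psmb9, Psmb10, Psme1 and Psme2 and of the constitutive catalytic genes Psmb5, Psmb6 and Psmb7 (TMM-scaled CPM, log axis) in the 4 groups. Each point is 1 library and each short line the mean of 2. In Psmb8, Psmb9, Psmb10, Psme1 and Psme2 both KO skin points lie above both WT skin points, as for 2492 of 12414 tested genes.

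Between skin and spleen, more members differed, as did many genes of the table. In WT, 3 of 46 members (6.52%) were higher in skin and 5 (10.9%) were lower, against 16.6% and 15.2% of all tested genes. In KO, 5 (10.9%) were higher in skin and 1 (2.17%) was lower, against 16.3% and 12.7%. The shares of members called were below those of all genes in each direction. Skin and spleen libraries did not overlap for 60.9% of members in WT and 63% in KO, near the 66.6% and 65.2% of all tested genes. The other 38 members in WT and 40 in KO did not pass. The tissue comparisons use different libraries from each other, but each shares libraries with both genotype comparisons.

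In WT, Psmb10 had the largest tissue difference after Psmd3, and in KO it was the only member called lower in skin. It lies on chromosome 8 at 105935735 to 105938444 (mm10, reverse strand) and was at 175 and 189 CPM in WT spleen, with 174 and 170 in KO spleen, above all 4 skin libraries (85.1 to 110 CPM). It was lower in skin by a log2 fold change of -1.08 ± 0.133 in WT (2.11-fold, edgeR adjusted p = 6.66e-06) and -0.71 ± 0.131 in KO (1.64-fold, 0.000493). Both calls held under all 17 alternatives. The difference between them, 0.37, did not pass (edgeR adjusted p = 0.559).

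Psmb8 and Psme1 were also lower in WT skin than in WT spleen. Psmb8 was at 805 and 829 CPM in WT spleen, with 850 and 871 in KO spleen. Its log2 fold change of skin against spleen in WT was -0.29 ± 0.0961 (edgeR adjusted p = 0.0306). This call held under 10 of 17 alternatives and ended with DESeq2 (0.0635), with the compared groups only (0.0593), and without WT skin replicate 1 (0.24), WT spleen replicate 1 (0.119), WT spleen replicate 2 (0.208), KO spleen replicate 1 (0.0594) or KO spleen replicate 2 (0.0581). Psme1 was at 383 and 391 CPM in WT spleen, with 346 and 389 in KO spleen (-0.38 ± 0.108 in WT, edgeR adjusted p = 0.0122). It was not called by edgeR without WT skin replicate 1 (adjusted p = 0.0621), WT spleen replicate 1 (0.0678) or WT spleen replicate 2 (0.1). Psmb9 lay in the same direction (-0.38 in WT, edgeR adjusted p = 0.0537) and did not pass, and in KO neither Psmb8 (-0.14) nor Psme1 (-0.01) did. Psmf1, which encodes the inhibitor PI31, was at 72.3 and 64.0 CPM in WT skin and 96.9 and 107.1 in WT spleen (-0.57 ± 0.164, edgeR adjusted p = 0.0125), a call that ended without WT skin replicate 2 (0.0798) or WT spleen replicate 2 (0.115).

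The members higher in skin belonged to the 19S base and the 20S core. Psmc6, a base ATPase gene whose promoter window was printed with those of Psmb8 and Psme1, was at 250 and 252 CPM in WT skin and 238 and 232 in KO skin, against 164 and 172 in WT spleen, with 179 and 177 in KO spleen. All 4 skin libraries were above all 4 spleen libraries. Its log2 fold change was 0.58 ± 0.116 in WT (edgeR adjusted p = 0.0010) and 0.40 ± 0.116 in KO (0.0149). Psmd1, a scaffold subunit of the base, was at 274 and 251 CPM in WT skin and 267 and 284 in KO skin, against 189 and 144 in WT spleen, with 196 and 197 in KO spleen. Its log2 fold change was 0.65 ± 0.134 in WT (edgeR adjusted p = 0.00112) and 0.49 ± 0.133 in KO (0.0100). The WT calls of Psmc6 and Psmd1 held under all 17 alternatives.

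Psma1, a gene of the alpha ring, was at 335 to 368 CPM in skin and 238 to 275 in spleen, with log2 fold changes of 0.41 in WT (edgeR adjusted p = 0.00963) and 0.50 in KO (0.00283). In KO, Psmc3, another base ATPase gene, stood at 308 and 315 CPM in skin and 219 and 214 in spleen (0.52 on the log2 scale, edgeR adjusted p = 0.00247), and Psmb1, a beta ring gene, at 401 and 418 in skin and 340 and 325 in spleen (0.30, 0.0361). Skin and spleen libraries did not overlap for these 3 genes in those comparisons, as for 66.6% (WT) and 65.2% (KO) of all tested genes. Scaling by the total count alone moved the median log2 fold change of all genes to -0.29 in WT and -0.26 in KO, from -0.04 and -0.03 with TMM. Under it, the calls of Psma1 in WT and of Psma1, Psmb1, Psmc3, Psmc6 and Psmd1 in KO ended (edgeR adjusted p = 0.292, 0.083, 0.663, 0.0667, 0.297 and 0.156), and the members other than Psmd3 above 0 went from 27 to 9 of 45 in WT and from 28 to 12 in KO. Without WT spleen replicate 2, Psma1 was not called in WT (edgeR adjusted p = 0.103). In KO, the Psmc6 call ended without any 1 of the 4 KO libraries (0.0506 to 0.0752), as did that of Psmb1 (0.0766 to 0.164), and that of Psmd1 without KO skin replicate 2 (0.0686).

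**Figure D4:**
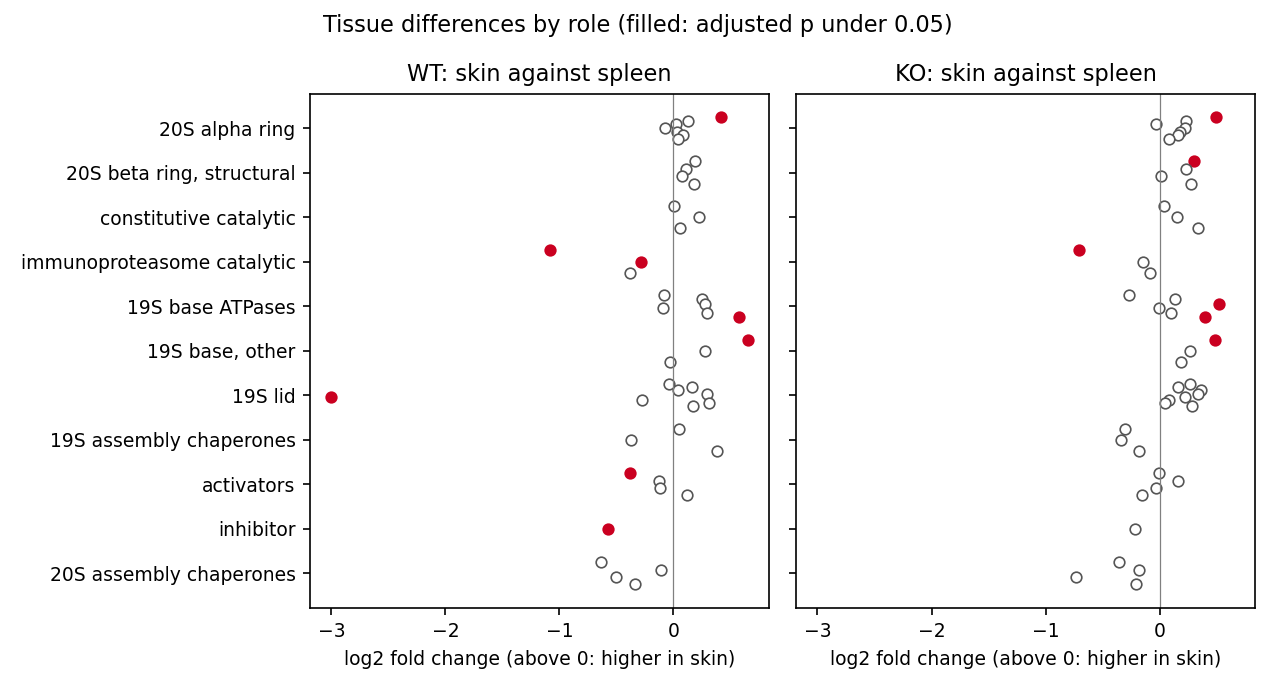
Tissue difference in each genotype, as log2 fold change (x axes; above 0, higher in skin) for the 46 members, each point 1 gene, in rows by role. Filled points passed edgeR's test at an adjusted p under 0.05. Psmd3 stands at -3.00 in WT among the lid genes, which lie between -0.28 and 0.31 otherwise, and Psmb10 is at -1.08 and -0.71.

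The 4 genes of the 20S assembly chaperones, Psmg1 to Psmg4, all had values below 0 in skin against spleen, in WT (median log2 fold change -0.42) and in KO (-0.28). None passed, and the smallest adjusted p by edgeR was that of Psmg1 in WT (0.0546). They were among the members of lowest count.

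Genes that work with the proteasome were read from a list of 30, of which 27 were tested. None was called by genotype in skin or spleen by edgeR, DESeq2 or limma-voom. By edgeR, 0.894% of all tested genes were called in skin and 0.282% in spleen. At an unadjusted p under 0.05 by edgeR there were 0 in skin and 1 in each direction in spleen. Of all 12414 tested genes, 684 were higher and 658 lower at this level in skin, and 341 and 631 in spleen. In WT, 5 of the 27 were higher in skin, against 16.6% of all tested genes, among them the ubiquitin gene Ubb (log2 fold change 0.98), the proteasome-bound deubiquitinase genes Usp14 (0.81) and Uchl5 (0.85), and Txnl1 (0.62), a thioredoxin of the 19S cap. The lower genes were Ufd1 (-0.45) and Rps27a (-0.50), a ubiquitin and ribosomal fusion gene. They made up 7.41% of the list, against 15.2% of all tested genes. In KO, 5 were higher in skin, namely Ubb (0.85), Usp14 (0.66), Uchl5 (0.81), Txnl1 (0.66) and the shuttle factor gene Rad23b (1.32). This was 18.5% of the list, near the 16.3% of all tested genes. None was lower, against 12.7% of all tested genes. Pomp, the maturation factor of the 20S core, was at 124 to 162 CPM in all 8 libraries.

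Of 14 genes of antigen processing and the interferon response, none was called by genotype by edgeR, DESeq2 or limma-voom, and 0 had an unadjusted p under 0.05 by edgeR in either tissue. Their median log2 fold changes were 0.01 in skin and 0.04 in spleen. By edgeR, 0.894% of all tested genes were called in skin and 0.282% in spleen. At the unadjusted level, 684 of all 12414 tested genes were higher and 658 lower in skin, and 341 and 631 in spleen. In WT, 7 of the 14 were higher in skin, against 16.6% of all tested genes, among them B2m (0.69), the class I light chain, and H2-D1 (0.54), a class I heavy chain. Only Nlrc5 was lower (-0.48), against 15.2% of all tested genes. Nlrc5, an activator of class I genes, was also the gene lower in skin in KO (-0.70), where 6 of the 14 were higher, against 16.3% of all tested genes. Tap1, the peptide transporter gene next to Psmb9, was at 630 and 756 CPM in WT skin and 752 and 893 in KO skin, where the groups overlapped (log2 fold change 0.25, edgeR adjusted p = 0.500).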

How the data were processed

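The file deposited by the authors holds unnormalized counts for each gene symbol in 8 libraries, made with STAR 2.7.3a and featureCounts on build mm10, per the submitters' processing notes. Per the labels' protocols, cDNA was primed with oligo(dT), amplified by PCR and tagmented, with paired reads of 25 bases. The annotation, the strand option and the counting of multiply mapped reads are not given in the sources used, and reads carry no molecular identifiers. Columns were matched to samples by title. Genes passing filterByExpr (minimum count 10) were scaled by TMM and tested with edgeR 4.0.16 in R 4.3.3 (robust quasi-likelihood fit of all 8 libraries, a coefficient for each group, prior count 2) with Benjamini-Hochberg adjustment over 12414 genes (threshold 0.05). The biological coefficient of variation was 17.5%. The 5 comparisons were KO against WT in each tissue, the difference between these effects, and skin against spleen in each genotype. A standard error (SE) is the log2 fold change divided by the root of F. Members and lists were chosen with earlier results of these data known, and Psmd3 was singled out on them. Values in each library are given for Psmd3, the catalytic genes and the members of smallest p in a class. Of other genes, Pparg, list genes past the threshold, neighbours of Psmd3 and genes with opposite genotype effects were eligible. List genes named below the threshold, PA28 levels and markers were chosen after their values were seen. A few list genes are not reported here. Alternatives were upper-quartile, RLE and total-count scaling, no filter, 20 counts in 2 libraries, DESeq2 1.42.0, limma-voom (limma 3.58.1), a replicate block, the compared groups only and leaving out each library. The edgeR, DESeq2 and limma steps were tested on simulated data. Positions and lengths are from GENCODE M21, 1-based, on mm10.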

Additional observations from a re-analysis of the deposited data

Results flagged for a closer look

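Psmd3 is listed because its genotype effect differed between the tissues by the test of that difference, a log2 value of 3.23 ± 0.397 (edgeR adjusted p = 0.0114, skin minus spleen). It was higher in both KO skin libraries than in both WT skin libraries and lower in both KO spleen libraries than in both WT spleen libraries. The Psmd3 share of the lid counts moved the same way, by a log2 ratio of 1.23 in skin and -1.67 in spleen, and with all other members as the denominator by 1.31 and -1.82.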

How the results depend on the processing

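Of the alternatives, none turned the direction of a called value. In skin, Psmd3 was not called with RLE scaling, a filter of 20 counts in 2 libraries or the compared groups only (log2 fold change 1.40 in each), so 0 members were called there in place of 1. Leaving out 1 library at a time gave Psmd3 log2 fold changes of 0.92 to 2.00 in skin, -2.09 to -1.58 in spleen, 2.75 to 3.83 for the difference, -3.60 to -2.52 between tissues in WT and -0.01 to 0.50 in KO. The members called were then 0 to 1 in skin, spleen and the difference, 5 to 8 between tissues in WT and 4 to 7 in KO. With total-count scaling 12 members were called between tissues in WT and 7 in KO, against 8 and 6. Of all 12414 tested genes, 4572 and 4169 were called with that scaling. With TMM, 2059 were higher and 1885 lower in WT skin, and 2019 and 1577 in KO skin. The count of all genes called moved more: by genotype in skin from 111 to 366 with no filter and 29 to 209 with 1 library left out, in spleen from 35 to 173 with no filter, 84 with DESeq2 and 7 to 119 with 1 library left out, and for the difference from 12 to 256, 96, 62 with limma-voom and 1 to 146. The immunoproteasome share, as a log2 ratio of KO to WT in skin, was 0.07 with the catalytic pairs and 0.14 with all 20S members as the denominator, and that of skin to spleen in WT was -0.12 and -0.38. Replicate numbers go with sex in all 4 groups. With genes on X and Y left out (12042 tested genes remained), same-numbered deviations correlated at -0.052 to 0.0484 between groups. The numbers were not taken to pair the samples. With a replicate block, which is also a block by sex, Psmd3 was at 1.41 in skin (edgeR adjusted p = 0.0475), -1.82 in spleen (0.0164) and 3.23 for the difference (0.0120), and 1, 1, 1, 10 and 7 members were called in the 5 comparisons. Of all 12414 tested genes, 135, 51, 16, 3911 and 3584 were called with the block, in the same order. Over all genes with 10 or more counts in a group, sex-linked ones included, chi-square per degree of freedom between replicates was 4.22 to 6.76. Replicate spread over these genes was thus above counting error. The value is not specific to Psmd3, which had 59 and 88 counts in WT skin, with 2 libraries per group.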
